A study of Mus musculus with 11 samples.

Results

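The genes described here encode the machinery of oxidative phosphorylation that comes from the nuclear genome. They were taken by name from the deposited expression table of mouse hypothalamus, as every gene whose symbol begins with Nduf, Uqcr, Cox and a digit, or Atp5, together with Sdha to Sdhd. Pseudogene names ending in -ps were left out. The rule found 101 of the 14864 genes in the table, of which 44 belong to complex I, 4 to complex II, 8 to complex III, 28 to complex IV and 17 to complex V. Of the 101 genes, 76 encode subunits, 18 encode factors that assemble the complexes or join them, and 7 encode minor isoforms of complex IV subunits. The choice used names only and no measured value.

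RNA was sequenced from the hypothalamus of mice aged 60 to 70 postnatal days that were labelled wild type (WT, 5 libraries, 2 female and 3 male) or Het (6 libraries, 3 female and 3 male). The series title names loss of MYT1L, a zinc finger transcription factor of neurons, and the mutation itself is not described in the labels. Where the labels do not say that libraries came from separate animals, p-values measure only the spread between these libraries. The comparison addressed here is Het against WT, with sex as a second factor.

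Oxidative phosphorylation takes place in the inner mitochondrial membrane. Complex I (NADH dehydrogenase) and complex II (succinate dehydrogenase) pass electrons to ubiquinone, complex III (cytochrome bc1) passes them on to cytochrome c, and complex IV (cytochrome c oxidase) passes them to oxygen. Complexes I, III and IV pump protons as they do so, and complex V (ATP synthase) uses the proton gradient to make ATP. Neurons depend on this pathway for most of the ATP they use. Complex II is built only from nuclear genes, whereas the other complexes also hold subunits encoded by mitochondrial DNA.

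Promoters of these genes are known to hold sites for NRF1 (nuclear respiratory factor 1), GABP (also called NRF2) and YY1. The 300 bases from 250 before to 50 after each annotated start were taken from RefSeq on build GRCm38.p6 (mm10). Entries were found for 83 of the 101 genes, matched by symbol or else by a unique synonym, with 89 promoters in all. The promoters of 4 genes are printed: those of the genes that passed the genotype test and had an entry, and that of Cox8a, which had the largest difference among subunits. Ndufaf6 also passed the test and is named only. Each is given 5′ to 3′ on the gene's own strand, and capitals mark a match to GCATGCGC (NRF1), CCGGAAG (GABP) or AANATGG (YY1) on either strand.
Ndufab1, chr7:122101799-122102098, minus strand: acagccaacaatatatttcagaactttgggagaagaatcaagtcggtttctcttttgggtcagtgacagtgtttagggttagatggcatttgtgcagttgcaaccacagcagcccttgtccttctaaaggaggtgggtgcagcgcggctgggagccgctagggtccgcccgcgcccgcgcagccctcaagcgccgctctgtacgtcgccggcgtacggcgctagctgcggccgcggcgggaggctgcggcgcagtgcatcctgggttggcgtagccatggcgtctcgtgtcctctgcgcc
Ndufb8, chr19:44555393-44555692, minus strand: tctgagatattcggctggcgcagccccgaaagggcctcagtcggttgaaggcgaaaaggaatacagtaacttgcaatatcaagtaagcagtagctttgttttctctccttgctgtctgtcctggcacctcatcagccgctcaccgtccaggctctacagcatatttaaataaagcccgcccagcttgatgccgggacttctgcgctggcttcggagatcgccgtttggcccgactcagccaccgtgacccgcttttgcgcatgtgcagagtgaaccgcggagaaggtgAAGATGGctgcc
Ndufa8, chr2:36049289-36049588, minus strand: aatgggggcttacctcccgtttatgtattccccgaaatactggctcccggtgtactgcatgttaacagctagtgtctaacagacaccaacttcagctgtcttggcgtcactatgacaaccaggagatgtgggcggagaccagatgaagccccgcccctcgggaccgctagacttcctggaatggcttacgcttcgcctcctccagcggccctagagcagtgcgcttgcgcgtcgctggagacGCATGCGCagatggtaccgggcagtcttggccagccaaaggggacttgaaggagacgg
Cox8a, chr19:7217567-7217866, minus strand: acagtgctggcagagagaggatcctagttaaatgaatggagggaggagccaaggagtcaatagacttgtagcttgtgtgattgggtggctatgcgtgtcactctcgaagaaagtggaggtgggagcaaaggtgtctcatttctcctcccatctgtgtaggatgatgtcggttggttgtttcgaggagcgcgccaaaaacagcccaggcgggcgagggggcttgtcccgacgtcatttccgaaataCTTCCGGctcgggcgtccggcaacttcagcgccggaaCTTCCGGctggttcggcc

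The Ndufab1 window held none of the 3 motifs. The Ndufb8 window held a YY1 match 38 bases after the start, the Ndufa8 window an NRF1 match 8 bases before it, and the Cox8a window a pair of GABP matches, 5 before and 32 after it. A gene was counted if any of its promoters held the motif. Among the 83 genes, the NRF1 motif was found in 14.5%, the GABP motif in 28.9% and the YY1 motif in 30.1%. The shares over 27025 genes, with promoters of the same length, were 3.05%, 9.93% and 18.2%. Over the 10383 genes tested here that matched by symbol alone they were 5.87%, 18.8% and 17.0%. None of the 3 motifs was found in 41.0% of the 83 OXPHOS genes and in 64.0% of those tested genes. By complex, the GABP motif was found in 6 of 39 genes of complex I, 8 of 21 of complex IV and 6 of 15 of complex V. The NRF1 letters and their reverse complement can overlap, so genes and not matches were counted. These are matches of letters, and binding was not measured in the table.

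Levels are given in CPM (each gene's counts scaled by a factor for its library), recovered from the deposited log2 values after the submitters' correction. The corrected counts totalled 22921048 to 24941704 per library, and 1 count stood for 0.0417 to 0.0423 CPM. This factor did not offset the totals, so CPM did not add up to the same total in every library. Totals were 23701175 to 24941704 in WT, highest in replicate 3, and 22921048 to 23799167 in Het, lowest in replicate 5. Every WT library except replicate 11 had a higher total than every Het library. The part of these totals in the OXPHOS difference was not tested on its own. How deeply the libraries were sequenced before correction is not known. The correction is named RUVr in the deposited table's name, a removal of unwanted variation estimated from residuals, and it takes out spread between libraries, so errors and p-values from these values may be too small. Myt1l, the gene named in the title, averaged 76.3 ± 15.9 CPM over the WT libraries (SD, n = 5) and 76.3 ± 26.9 CPM over the Het libraries (SD, n = 6), and the log2 difference was -0.01 (SE 0.176, limma adjusted p = 0.976). The library labelled WT replicate 11 had 51.1 CPM, below the other WT libraries at 70.5 to 89.3 CPM. The library labelled Het replicate 9 had 130 CPM, above the other Het libraries at 58.7 to 75.9 CPM. The main results are therefore also given without these 2 libraries. Groups are used as labelled throughout.

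Nuclear OXPHOS genes were a little lower in Het as a class, and few of them passed a test of their own. With limma on log2(CPM + 0.5), genotype and sex as terms and adjustment over all 13184 genes with a mean of at least 1 CPM, 98 of the 101 genes were tested. The 3 below that level were Cox8b (0.209 CPM in WT and 0.302 in Het), the muscle form of subunit 8, Cox20 (0.478 and 0.364), an assembly factor, and Cox7b2 (0.974 and 0.658), a minor isoform. In Het, 4 fell, none rose, and 94 did not pass the adjusted p of 0.05. Those that fell were Ndufab1, Ndufb8, Ndufa8 and Ndufaf6, all of complex I. Of all genes tested, 1.14% passed in the lower direction and 3.44% in either direction, beside 4 of 98 here. At an unadjusted p under 0.05 there were 53 OXPHOS genes (54.1% of those tested), 52 lower and 1 higher. Of all genes tested 22.3% were at that level, 11.7% in the lower direction, and later counts at an unadjusted p read against that share. The log2 difference was negative for 93 of the 98 genes, with a median of -0.16, and the median over all genes tested was -0.02. The median gene of the class was 10.4% lower in Het in CPM, with no allowance for the library totals, which were mostly lower in Het. Many of these genes were high or low in the same libraries, so counts over genes are not independent. No test over the class was run. Without WT replicate 11 and Het replicate 9, 3 genes fell (Ndufab1, Ndufb8 and Ndufa8), the median was -0.195, and 68 genes had an unadjusted p under 0.05, where 21.4% of all genes did. The middle of the distribution was narrow, from -0.19 at the lower quartile to -0.13 at the upper. All 76 subunits had a negative difference, with a median of -0.17. Of the 17 assembly factors tested, 13 were negative, and their median was -0.10. WT libraries averaged 45740 CPM when the 101 genes were summed (SD 3313, n = 5), and Het libraries averaged 41060 CPM (SD 2322, n = 6). These sums are not shares of counts, because CPM did not add up to the same total in every library. In bulk tissue, fewer cells rich in these transcripts and less transcript per cell cannot be told apart.

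**Figure D1:**
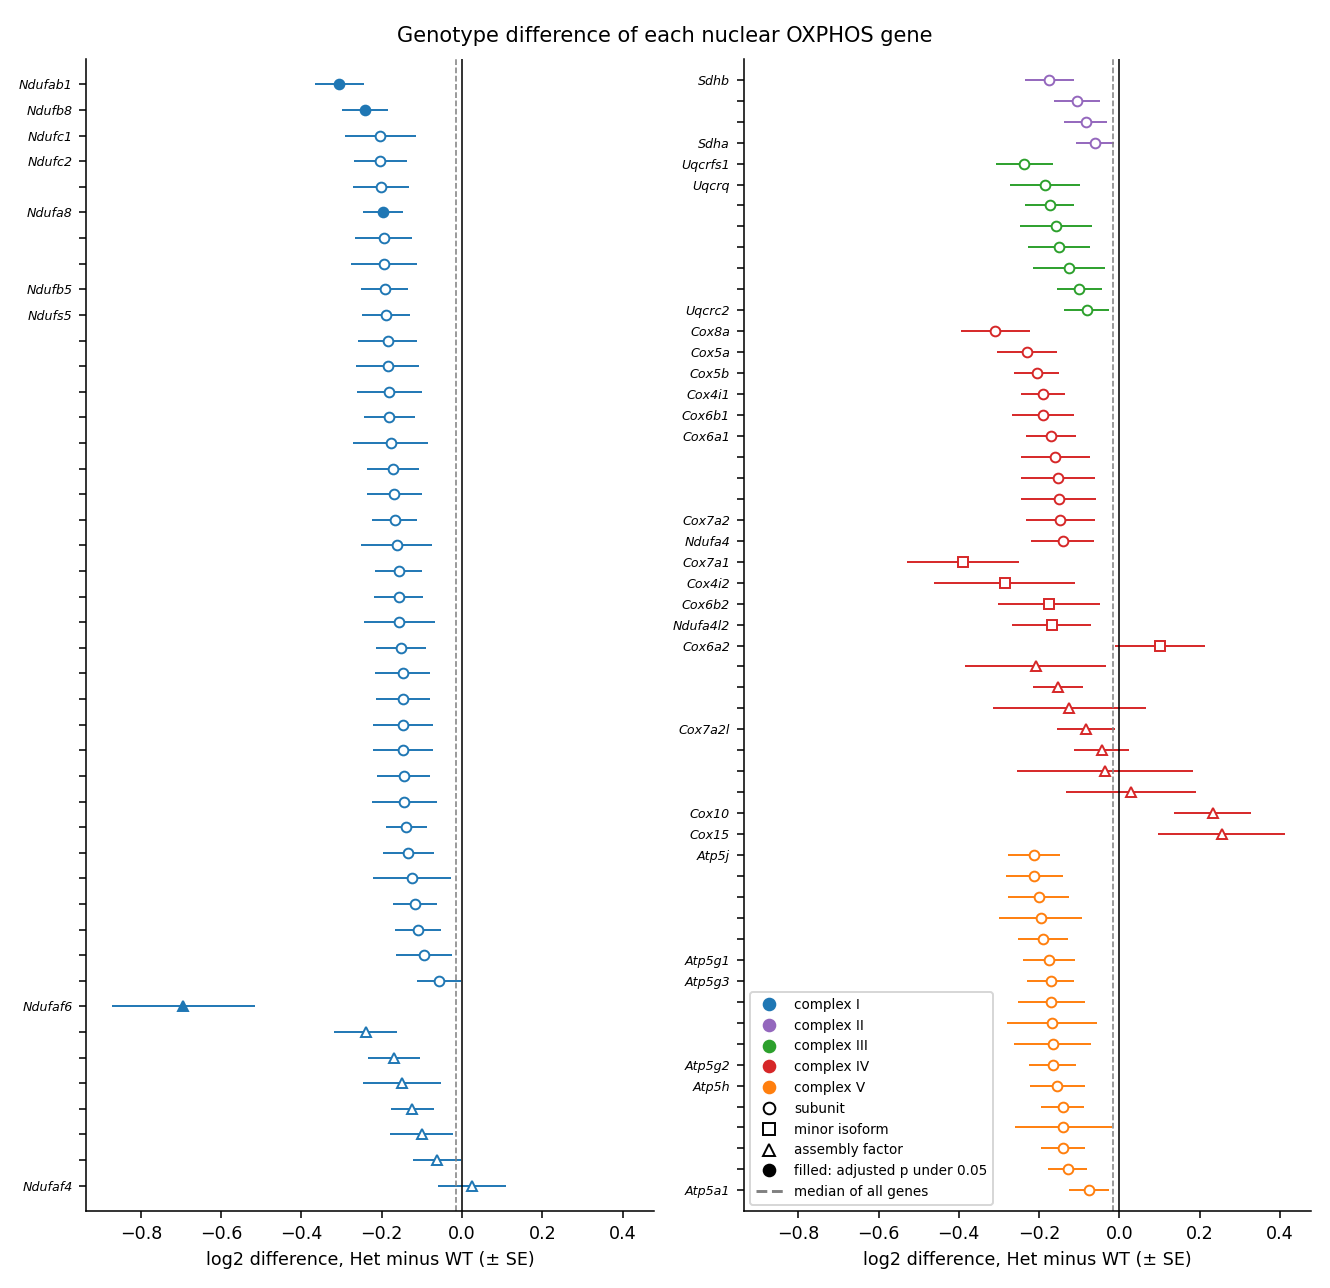
Log2 difference between Het and WT for each of the 98 tested genes, with its standard error, by complex and role; only genes selected for naming are labelled. Points to the left of 0 are lower in Het. Filled points passed at an adjusted p of 0.05, and the dashed line is the median of all genes tested at -0.02. Nearly all points sit between -0.3 and 0, and the 4 filled ones are of complex I.

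The groups overlapped for every gene of the class. In none of the 98 genes were all 6 Het values below all 5 WT values, which held for 1.33% of all genes tested. Averaged over the genes, the deviation from each gene's own mean over the libraries was 0.02, 0.20, 0.15, 0.08 and -0.06 (log2) in WT replicates 4, 6, 3, 7 and 11. In Het it was -0.04, -0.03 and 0.05 in the female replicates 2, 4 and 7, and -0.15, -0.15 and -0.08 in the male replicates 5, 8 and 9. The groups overlapped: WT replicates 4 and 11 lay inside the Het range, and Het replicates 2, 4 and 7 inside the WT range. WT replicate 3 was the highest library for 44 genes and WT replicate 6 for 34, whereas Het replicate 5 was the lowest for 43 and Het replicate 8 for 22. Without Het replicate 7, 8 of 98 genes had no overlap between groups, where 2.83% of all genes did. Without WT replicate 11 and Het replicate 9 there were 7, where 3.46% of all genes did.

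**Figure D2:**
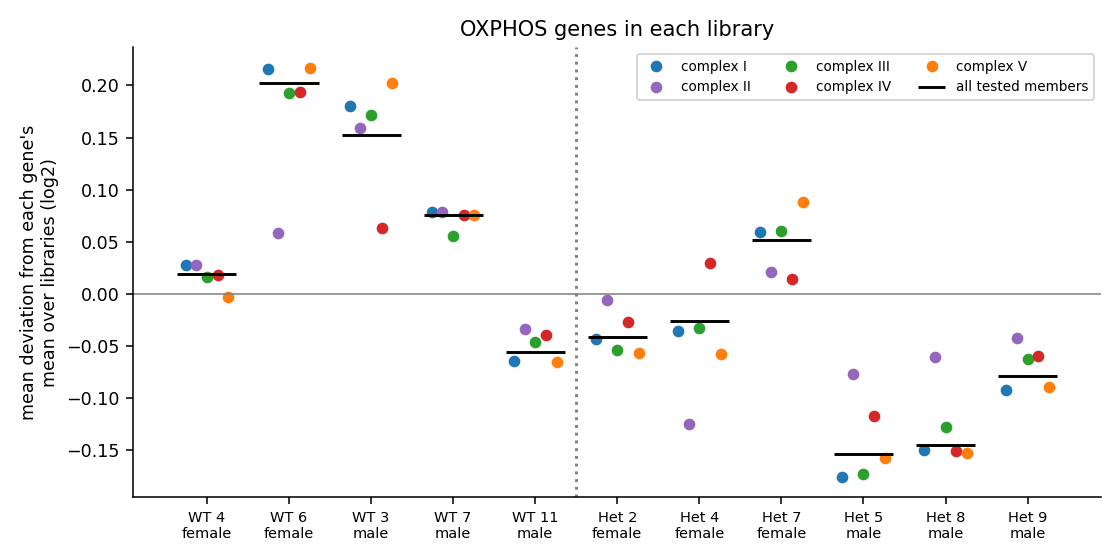
Mean deviation of OXPHOS genes from each gene's mean over the 11 libraries, in log2, for every library and complex, with a bar for all 98 tested genes. WT replicate 6 is highest at 0.20 and Het replicate 5 lowest at -0.15. WT replicates 4 and 11 and Het replicates 2, 4 and 7 lie inside the range of the other group.

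The labels carry an identifier prefix whose meaning they do not give. Prefix 14308 holds WT replicates 3 and 7 and Het replicates 5 and 8. Prefix 14309 holds WT replicates 6 and 11 and Het replicates 2, 4, 7 and 9. Only WT replicate 4 has prefix 14111. Within prefix 14308, all male, the median over the OXPHOS genes was -0.27, and 94 of 98 were negative. Within prefix 14309 it was -0.13, and 90 were negative. No gene of the class passed limma in either subset, where 64 and 12 had an unadjusted p under 0.05. Over all genes the shares at that level were 11.9% and 11.1%, so the 12.2% of OXPHOS genes in prefix 14309 was near the background. Of all genes, only 6 and 16 passed the adjusted threshold in these small subsets, so the lack of OXPHOS calls there says little. The count of 4 depended on single libraries, with 1 gene passing without any one of WT replicates 6 and 7 and Het replicates 2, 5 and 8, and 9 passing without WT replicate 3. Without Het replicate 9, 2 passed. With 1 residual degree of freedom fewer, as a stand-in for a removed factor, 1 gene passed, and with no sex term none did, where 42 had an unadjusted p under 0.05. With limma's voom weights 2 passed, and that setting also scaled each library to its own total of corrected counts. The OXPHOS median was then -0.0912, and the median over all genes was 0.051. With quantile normalization 1 passed. Centring each library on its median gene gave 7.

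In the main fit, complex I held all of the genes that passed. Of its 44 genes, 4 fell and 43 had a negative difference, and 30 had an unadjusted p under 0.05, where 22.3% of all genes did. With each library centred on its median gene, Cox5b, Cox8a and Uqcrfs1 of other complexes also passed. With the identifier prefix as a block, Atp5j and Cox8a did. The 29 accessory subunits of complex I, which surround the catalytic core, had a median of -0.17, and 3 of them fell. The 4 core subunits of the quinone-reducing arm had a median of -0.16 and the 3 of the NADH-oxidising arm a median of -0.11. None of these 7 passed, and 5 of them had an unadjusted p under 0.05.

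Ndufab1 encodes the mitochondrial acyl carrier protein, which is both a complex I subunit and a carrier in mitochondrial fatty acid synthesis. The gene (ENSMUSG00000030869) lies on mm10 chromosome 7 from 122085403 to 122101886. Its level was 366, 356, 249, 288 and 314 CPM in WT replicates 4, 6, 3, 7 and 11. In Het the lowest value was 228, the median 255 and the highest 310 CPM. Females were higher than males within each genotype, and within each sex every Het value lay below every WT value. Means were 315 ± 48.6 CPM for WT (SD, n = 5) and 259 ± 32.3 CPM for Het (SD, n = 6). On the log2 scale Het differed by -0.31 (SE 0.061, limma adjusted p = 0.0151). It passed in all 11 runs with 1 library left out, with a limma adjusted p of at most 0.049. Over all 30 alternatives it passed in 21, with an adjusted p of up to 0.578. The settings that lost it included quantile normalization, no sex term, either prefix alone and the difference within either sex. It was also lost with a covariate of striatal marker genes, and with a trend on principal transcript length and GC content taken out. The predicted gene Gm44986 overlaps its exons on the opposite strand, and no source used here says whether reads were counted by strand. Exons of another gene overlap 38 of the 98 tested genes on either strand. Their median difference was -0.15, and that of the 60 without an overlap was -0.16.

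Ndufb8 encodes an accessory subunit of the membrane arm. The gene (ENSMUSG00000025204) lies on chromosome 19 from 44548572 to 44555440. WT values were 510, 552, 468, 448 and 414 CPM in the same order, and Het values ran from 338 over a median of 427 to 466 CPM. The log2 difference was -0.24 (SE 0.058, limma adjusted p = 0.0328). The groups overlapped because the female Het libraries reached the male WT ones. The call was kept in 5 of 11 runs with 1 library left out, those without WT replicate 3, 4 or 11 or Het replicate 7 or 9, and lost in the other 6. Gm20538 shares exons with it on the same strand.

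Ndufa8 encodes an accessory subunit with twin cysteine motifs that faces the intermembrane space. The gene (ENSMUSG00000026895) lies on chromosome 2 from 36036326 to 36049406. WT values were 653, 701, 655, 635 and 601 CPM, and Het values ran from 542 over 565 to 613 CPM. Only Het replicate 7, at 613 CPM, was above the lowest WT library. The log2 difference was -0.20 (SE 0.049, limma adjusted p = 0.0391), and the call was kept without WT replicate 3 or 11 or Het replicate 7 and lost in the other 8 runs.

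Ndufaf6, an assembly factor needed early in complex I assembly, had the largest difference of the class at a low level. The gene (ENSMUSG00000050323) lies on chromosome 4 from 11051045 to 11076205. WT values were 12.3, 18.3, 9.15, 13.8 and 13.7 CPM, and Het values ran from 4.62 over 8.23 to 12.6 CPM. The groups overlapped, since WT replicates 3 and 4 lay inside the Het range. Its log2 difference was -0.69 (SE 0.178, limma adjusted p = 0.0423). The call was lost without the 2 libraries whose Myt1l level went against their label (-0.52), and in 7 of the 11 runs with 1 library left out. It was kept without WT replicate 3 or 4 or Het replicate 4 or 7.

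**Figure D3:**
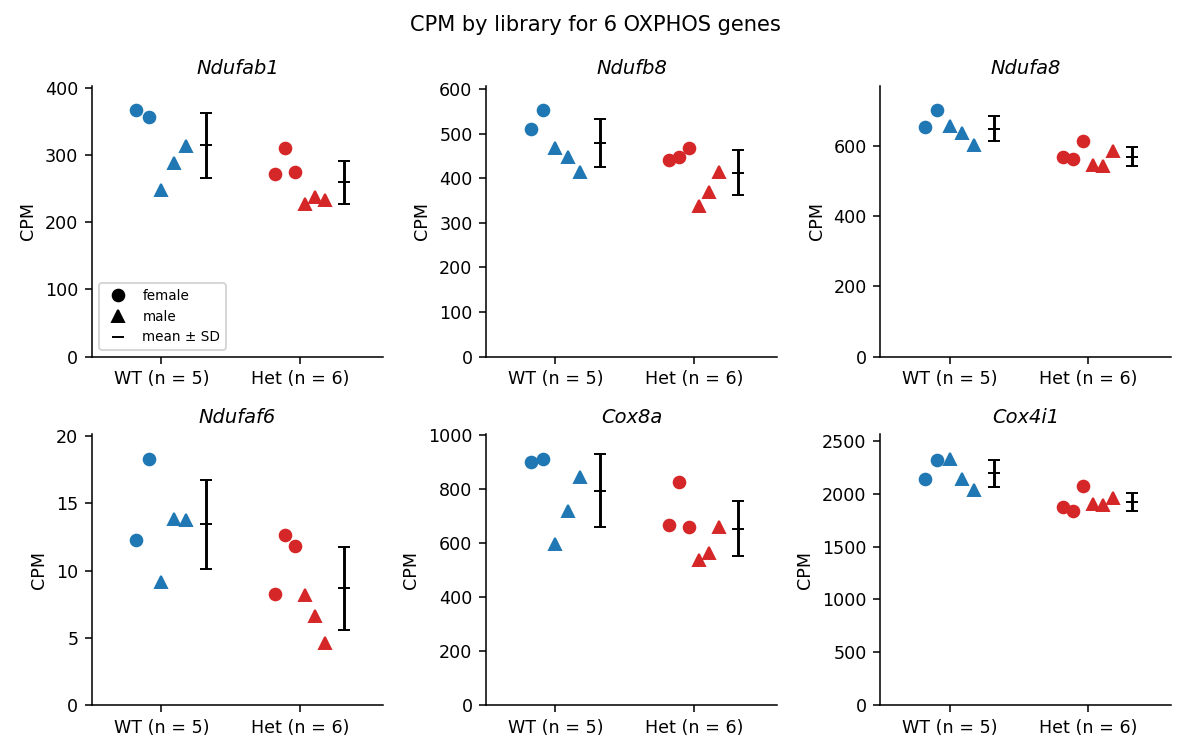
CPM in each library for the 4 genes that fell and for Cox8a and Cox4i1, which did not pass, with mean and SD beside the points. Circles are females and triangles males, and every axis starts at 0. Het values are lower on average in all 6 panels and overlap with WT in each.

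Other complex I genes named by the rule came close without passing. Ndufb5 and Ndufc2, accessory subunits of the membrane arm, had differences of -0.19 and -0.20, and Ndufs5, another accessory subunit, of -0.19, with limma adjusted p of 0.0765, 0.0901 and 0.0834. Ndufaf4, an assembly factor, was the only complex I gene with a positive difference, of 0.02 (95% interval -0.16 to 0.20, limma adjusted p = 0.894). Its sign turned in 9 of the alternatives.

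Complex II had the median closest to 0. Its 4 genes were all negative, with a median of -0.09, and none passed. At an unadjusted p under 0.05 there was 1 of 4, near the 22.3% of all genes. Sdhb, the iron-sulfur subunit, was at 833, 828, 915, 805 and 770 CPM in WT, and ran from 683 over 719 to 839 CPM in Het. Het replicates 2 and 7 lay inside the WT range, and the other Het libraries were below it. Means were 830 ± 53.4 CPM for WT (SD, n = 5) and 740 ± 61.8 CPM for Het (SD, n = 6), and Het minus WT was -0.17 on the log2 scale (SE 0.061, limma adjusted p = 0.112). Sdha, the flavoprotein that oxidises succinate, had the smallest difference of the complex, -0.06 (95% interval -0.16 to 0.04, limma adjusted p = 0.468). With quantile normalization the Sdha difference was 0.0708 and with voom weights 0.00623.

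All 8 complex III genes were negative, with a median of -0.15. None passed, and 2 of 8 had an unadjusted p under 0.05, near the 22.3% of all genes. Uqcrfs1, the Rieske iron-sulfur protein that takes electrons from ubiquinol, had the largest difference. Its WT values were 381, 336, 275, 313 and 373 CPM, and Het values ran from 266 over 276 to 322 CPM. Of the 5 WT libraries 3 lay above every Het library, and the other 2 lay inside the Het range. Het differed from WT by -0.24 (SE 0.071, limma adjusted p = 0.0737). Uqcrc2, a core protein, had the smallest, -0.08 (95% interval -0.20 to 0.04, limma adjusted p = 0.406), and was positive with quantile normalization (0.016) and with a striatal marker covariate (0.0555). Uqcrq, a small subunit, averaged 701 ± 112 CPM for WT (SD, n = 5) and 620 ± 63.8 CPM for Het (SD, n = 6), with a difference of -0.18 (limma adjusted p = 0.225).

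No gene of complex IV passed. The 11 main subunits were all negative, with a median of -0.17, and 6 had an unadjusted p under 0.05. The 9 assembly factors tested had a median of -0.04, and 3 were positive. With limma 9 of the 25 tested genes of the complex had an unadjusted p under 0.05. Whether the subunits and the assembly factors differ from each other was not tested.

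Cox8a, a small subunit that is the ubiquitous form of subunit 8, had the largest difference of any subunit. Its WT values were 899, 911, 595, 718 and 844 CPM, and Het values ran from 536 over 660 to 826 CPM. WT replicate 3 lay below 4 of the Het libraries. Het differed from WT by -0.31 (SE 0.086, limma adjusted p = 0.0563). Cox4i1, the ubiquitous form of regulatory subunit 4, was the most abundant subunit of the class. Its WT values were 2134, 2322, 2327, 2141 and 2036 CPM, and Het values ran from 1834 over 1896 to 2072 CPM. Het replicate 7 alone exceeded the lowest WT library. Het differed from WT by -0.19 (SE 0.054, limma adjusted p = 0.0615). Cox5b, a zinc-binding subunit on the matrix side, was at 600, 664, 596, 570 and 537 CPM in WT and ran from 444 over 532 to 583 CPM in Het. Its log2 difference was -0.21 (SE 0.056, limma adjusted p = 0.0539).

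Among assembly factors of complex IV, Cox15, which takes part in making heme A, had the highest difference of the class, 0.26 (95% interval -0.08 to 0.59, limma adjusted p = 0.353). It was measured at 3.30, 3.40, 7.25, 6.96 and 6.56 CPM in WT replicates 4, 6, 3, 7 and 11, and at 5.20 to 6.78 CPM in Het. The female WT libraries were the low ones. Cox10, which works at the preceding step of heme A synthesis and was picked out after its values were seen, averaged 24.8 ± 1.37 CPM for WT (SD, n = 5) and 29.2 ± 4.07 CPM for Het (SD, n = 6), with a difference of 0.23 (limma adjusted p = 0.168). Cox15 shares exons with Cutc and Entpd7, and Cox10 with 9630013K17Rik, all on the opposite strand.

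All 17 complex V genes were negative, with a median of -0.17. None passed limma, and 11 had an unadjusted p under 0.05, where 22.3% of all genes did. By part of the enzyme the medians were -0.14 for the 5 subunits of the catalytic F1 head, -0.17 for the 3 genes of the c ring, -0.17 for 4 peripheral stalk subunits and -0.17 for 5 small membrane subunits. Atp5j, a stalk subunit known as coupling factor 6, had the smallest p of the complex. Its WT values were 644, 783, 725, 675 and 610 CPM, and Het values ran from 542 over 603 to 666 CPM. The groups overlapped between 610 and 666 CPM, and the log2 difference was -0.21 (SE 0.064, limma adjusted p = 0.0737). Atp5a1, the alpha subunit of the head, had the smallest difference, -0.08 (95% interval -0.18 to 0.03, limma adjusted p = 0.399).

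The shares of isoforms were close in the groups, and no test of them was run. The ring of c subunits is encoded by 3 genes that give the same mature protein, and per length of transcript Atp5g1 made up 40.7% ± 1.43, Atp5g2 17.7% ± 0.442 and Atp5g3 41.6% ± 1.83 of their sum in WT (SD, n = 5). In Het the shares were 40.6% ± 1.09, 17.9% ± 0.594 and 41.5% ± 1.14 (SD, n = 6). The 3 log2 differences were alike, -0.17 for each gene. For complex IV, the ubiquitous isoform dominated in each pair. Cox4i1 made up 99.6% of subunit 4 in WT, with the rest from Cox4i2, the form known from lung. Cox6a1 made up 98.8% beside Cox6a2 of heart and muscle, Cox6b1 97.9% beside Cox6b2 of testis, and Cox7a2 97.4% beside Cox7a1 of heart and muscle. Ndufa4, now counted as a complex IV subunit, made up 99.3% beside Ndufa4l2. Cox8a made up nearly all of subunit 8. Of the minor isoforms tested, Cox7a1 had the lowest difference, -0.39 (SE 0.139, limma adjusted p = 0.117), with means of 9.04 ± 0.969 CPM for WT (SD, n = 5) and 6.97 ± 1.42 CPM for Het (SD, n = 6). Cox6a2 was the only one with a positive difference, 0.10 (limma adjusted p = 0.633). Cox7a2l, which joins complexes III and IV into supercomplexes and is no subunit of either, had a difference of -0.08 (limma adjusted p = 0.531).

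Levels of the subunits in WT, in CPM per kb of the shortest principal transcript, differed widely within a complex. Medians were 553 in complex I, 271 in complex II, 1051 in complex III, 1285 in complex IV and 881 in complex V. Cox4i1 was highest at 2942 ± 171 (SD, n = 5), and Ndufa4, a small complex IV subunit, followed at 2360 ± 305 (SD, n = 5). The order within a complex went from Ndufc1 (1409) down to Ndufb2 (43.8) in complex I, from Sdhb (727) to Sdhc (116) in complex II, from Uqcrq (1732) to Uqcrc2 (210) in complex III, from Cox4i1 to Cox7b (390) in complex IV, and from Atp5h (1922) to Atp5o (207) in complex V. Near the top, neighbours lay within their spread: Atp5h was at 1922 ± 196, Cox6c at 1811 ± 293, Cox6a1 at 1772 ± 112 and Uqcrq at 1732 ± 275 (SD, n = 5). Ndufb2 is overlapped by Braf on the opposite strand and by Gm42420 on its own strand. The length used matters here: with the longest annotated transcript, Ndufb10 and Uqcr10 take the place of Ndufc1 and Uqcrq, and Sdhb, Cox4i1 and Atp5h stay highest.

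**Figure D4:**
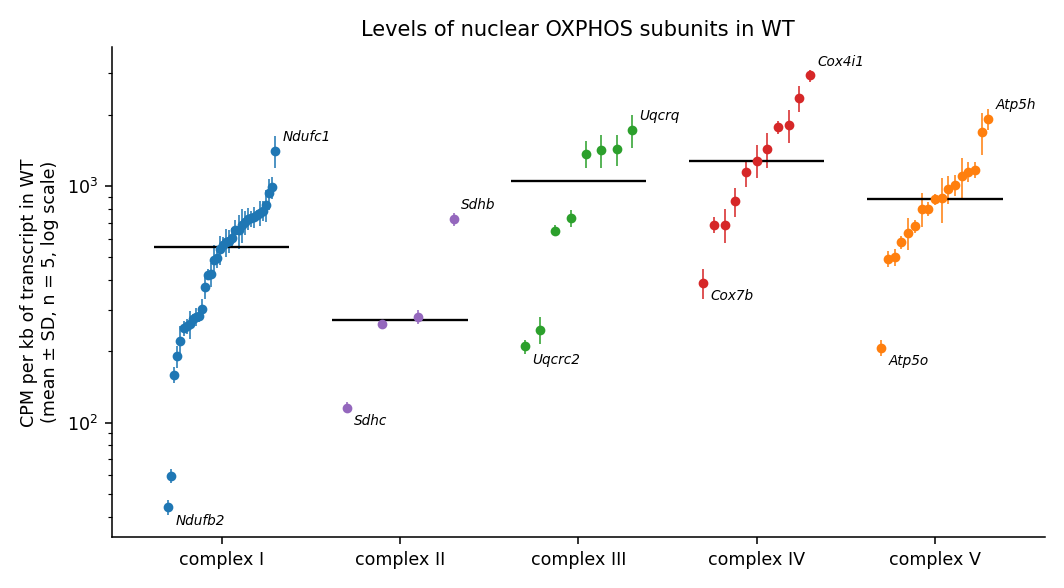
Level of each nuclear subunit in WT, as CPM per kb of transcript on a log scale, with mean and SD over 5 libraries; black bars are medians per complex. Complex IV has the highest median at 1285 and complex II the lowest at 271, and Ndufb2 is lowest of all at 43.8.

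The class consists of short transcripts, and transcript length went with the genotype difference across the whole table. The 98 tested genes had a median principal transcript of 772 nucleotides, from 315 to 4798, against 2819 over all genes. Split by that length into 5 equal classes, all genes tested had median log2 differences of -0.14, -0.07, -0.002, 0.05 and 0.14 from the shortest to the longest. In the shortest class, 84.2% of all genes were negative, and 79 OXPHOS genes in it had a median of -0.17, with 77 negative. In the next class the 11 OXPHOS genes had a median of -0.12. When each library's trend on length and GC content was taken out, the OXPHOS median became -0.02, 66 of 98 were negative and none passed limma, with 4 at an unadjusted p under 0.05. With the longest transcript as the length, the median was -0.00402, 50 were negative, and Ndufab1 and Atp5l, a membrane subunit of complex V, passed. The mean deviation of the class was then between -0.05 and 0.06 in every library. The Ndufab1 difference was -0.31 with the longest transcript, of 3479 nucleotides, and -0.21 with the principal transcript, of 1416. For Ndufb8 it was -0.16 and -0.08, for Ndufa8 -0.02 and -0.05, and for Ndufaf6 -0.53 and -0.57. The cytosolic ribosomal proteins, another class of short abundant transcripts, had a median of -0.17 with all 79 tested genes negative. Of the 79, 2 fell, where 1.14% of all genes tested did. Whether the length of transcripts accounts for the OXPHOS difference was not tested beyond these values.

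**Figure D5:**
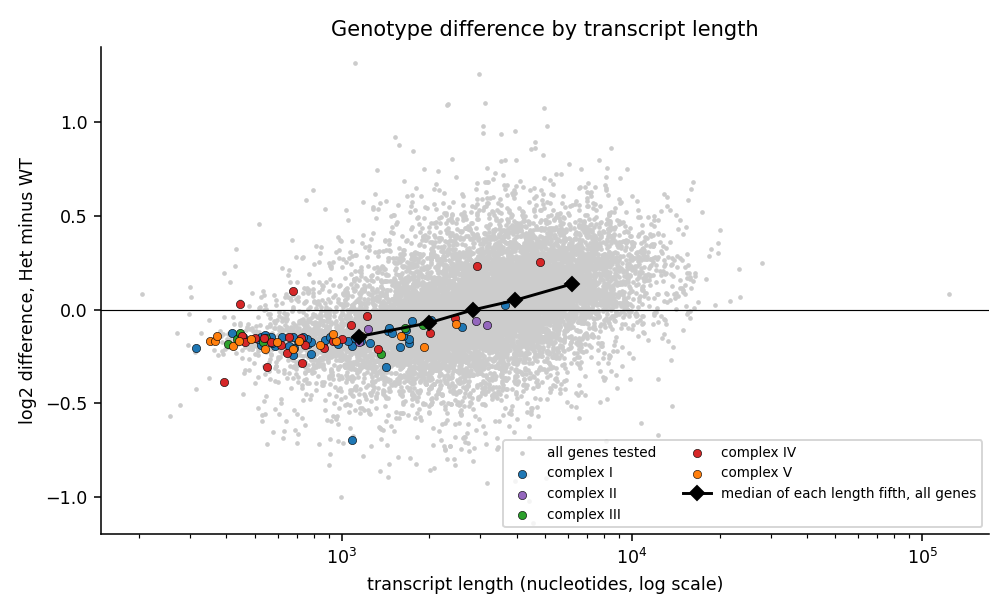
Log2 difference between Het and WT against transcript length (log axis) for all genes tested in grey and for OXPHOS genes coloured by complex, with black diamonds at the median of each of 5 length classes of all genes. The diamonds climb from -0.14 in the shortest class to 0.14 in the longest, and most OXPHOS genes lie at the short end near the line.

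Sex differed for 1 gene of the class. Ndufab1 was higher in females, at 316 ± 44.1 CPM (SD, n = 5) against 258 ± 34.8 CPM in males (SD, n = 6), and females minus males was 0.32 on the log2 scale (SE 0.061, limma adjusted p = 0.0444). Of all genes tested, 0.197% passed for sex. The call for Ndufab1 was lost with quantile normalization, with 1 residual degree of freedom fewer, without the 2 libraries named above, and in most runs with 1 library left out. Over the class 83 of 98 genes were higher in females, with a median of 0.09, where the median of all genes was 0.01. Next by p were Ndufb8 at 0.27, Cox5a, which carries subunit 5A of complex IV, at 0.30, Cox8a at 0.31 and Cox5b at 0.18, with limma adjusted p of 0.0848, 0.137, 0.162 and 0.217. The sex difference and the identifier prefix are partly the same split, since prefix 14308 holds males only.

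The genotype difference was not shown to differ between the sexes. No OXPHOS gene passed the interaction test in limma, where 1 had an unadjusted p under 0.05, and 0% of all genes passed, with 613 at an unadjusted p under 0.05. The difference within each sex was taken from the interaction fit on all 11 libraries, so its spread comes from both sexes. Within females the median over the class was -0.11 and 91 of 98 were negative. Within males it was -0.19 and 96 were negative. The smallest p belonged to Cox15, with an interaction of 0.79 (SE 0.252, limma adjusted p = 0.982): its difference was 0.70 in females and -0.10 in males. The corresponding values were -0.10 and -0.26 for Ndufs5, and 0.27 and -0.03 for Cox6a2.

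Other genes of the pathway had similar small differences. The 19 other nuclear OXPHOS subunits and electron carriers had a median of -0.15, and none passed limma, where 8 had an unadjusted p under 0.05. Among them, Atpif1, the inhibitor of ATP hydrolysis by complex V, had a difference of -0.19 (limma adjusted p = 0.0844), and Cyc1, cytochrome c1 of complex III, one of -0.23 (limma adjusted p = 0.0939). The 40 other assembly factors had a median of -0.12 and none passed, with 12 at an unadjusted p under 0.05. The 13 genes of mitochondrial DNA had a median of -0.13 and none passed, with 2 at an unadjusted p under 0.05. Their summed level was 43720 to 54000 CPM in WT and 41180 to 47330 CPM in Het, with close medians of 45560 and 45460 CPM.

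Lists of mitochondrial genes outside the chain had medians from -0.14 to 0.05. The 21 genes of the citric acid cycle and pyruvate dehydrogenase had a median of -0.05 and none passed, with 6 at an unadjusted p under 0.05. Of 10 carriers, porins and uncouplers, Ucp2, an inner membrane carrier, fell by 0.26 on the log2 scale (SE 0.047, limma adjusted p = 0.00993), and Vdac1, an outer membrane channel, had a difference of 0.20 (limma adjusted p = 0.0537). Mitochondrial ribosomal proteins had a median of -0.14, and 5 of 77 fell, where 1.14% of all genes tested did. Among the 5 were Mrpl13, by 0.27, and Mrpl54, by 0.26 on the log2 scale. The 22 regulators of mitochondrial biogenesis that were tested had a median of 0.05, and none passed, with 2 at an unadjusted p under 0.05. These 2 went in opposite directions: Sirt3 at -0.19 (limma adjusted p = 0.0929) and Gabpb2 at 0.61 (limma adjusted p = 0.107). Gabpb2 was at a low level, with means of 1.36 CPM in WT and 2.28 CPM in Het. Ppargc1a, a coactivator of mitochondrial gene expression, was not among the 2 and had a difference of 0.15 (limma adjusted p = 0.307).

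Striatal and hypothalamic markers changed with genotype in the same libraries. Of all 13184 genes tested, 303 rose and 150 fell, 3.44% in either direction, and the counts below read against that share. Of 14 striatal markers 8 rose and none fell, with a median of 0.59, and their summed level was 1975 to 2524 CPM in WT and 2306 to 4165 CPM in Het. Of 16 hypothalamic identity genes 4 fell and none rose, with a median of -0.24 and summed levels of 3289 to 4227 CPM in WT and 2404 to 3586 CPM in Het. Of the neuron, astrocyte and oligodendrocyte precursor lists, 1 of 14, 1 of 9 and 1 of 6 rose. Of 8 endothelial markers 1 fell, and of 8 oligodendrocyte and 9 microglia markers none passed, with 0 and 1 at an unadjusted p under 0.05. Of thalamic and of cortical and hippocampal markers, 1 of 10 rose in each list, and the summed level of the latter was 206 to 342 CPM in WT and 316 to 406 CPM in Het. None of 5 ependymal, 6 choroid plexus and 5 blood markers passed, with 1 at an unadjusted p under 0.05 in each list, and their medians were -0.18, -0.36 and -0.68. Summed neuron markers were at 7446 to 7937 CPM in WT and 7238 to 8322 CPM in Het. No gene of these lists was at 0 in every library. With the mean of the striatal markers as a covariate, the OXPHOS median was -0.07, 82 of 98 were negative, and only Cox8a passed, while 2 of all genes did. The part of these tissue markers in the OXPHOS difference was not tested further.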

How the data were processed

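RNA of 5 WT and 6 Het hypothalamus libraries was made with a Zymo kit and a SMARTer Ultra Low kit, per the labels. The submitters' processing notes name Trimmomatic, Bowtie2, STAR, HTSeq and build mm10, with roles and versions not given in the sources used here. The authors deposited 1 table of log2 expression values, with a correction named RUVr whose settings are not given. Values were turned back into CPM by raising 2 to each value and subtracting the same for the table's floor of -3.5736, and 100% of values were then whole steps within a tolerance of 0.02. A design on CPM had been planned, so the recovered CPM were used.

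The model was limma (3.58.1, under R 4.3.3) on log2(CPM + 0.5), over genes with a mean of at least 1 CPM (1680 left out), with genotype and sex as terms, 8 residual degrees of freedom and Benjamini-Hochberg adjustment. Python 3.11.15, pandas 2.3.3 and matplotlib 3.10.9 were used for summaries and plots. The fit and the trend step were tested on simulated data. The length and GC trend was a spline with 4 degrees of freedom per library. Levels per length use the shortest principal transcript, in place of the longest that was planned, because the longest did not suit several genes. This choice was made after seeing the data.

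The genes, lists and rules were chosen with earlier results of these data known. Genes were named if they passed, or up to 12 by smallest p. Also named were the extremes of each complex, its highest level per length, fixed isoform families, the first 5 for sex and 3 for the interaction, and up to 3 per other list. Alternatives were 30 settings for genotype.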

Additional observations from a re-analysis of the deposited data

Results flagged for a closer look

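In 5 genes, 1 Het library stood apart from the other 5 by Dixon's test, and it was Het replicate 7, a female, each time. Ndufc2, an accessory subunit of complex I, was at 485.43 CPM there and at 421.8 to 445.08 CPM in the others. Atp5h, a stalk subunit of complex V, was at 967.39 CPM, with the others at 798.55 to 828.28 CPM. Atp5g1, of the c ring, was at 703.98 CPM against 569.53 to 608.56 CPM. Cox7a2, of complex IV, was at 627.83 CPM against 462.68 to 516.98 CPM. Ndufa4, of complex IV, was at 1127.4 CPM against 902.89 to 965.69 CPM. Of 74 groups tested these 5 were found, and chance flags about 1 in 20 groups. The 5 genes share the library, so they are not independent.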

How the results depend on the processing

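The 4 OXPHOS genes that passed for genotype became 7 with median centring, 1 with quantile normalization, 1 with 1 residual degree of freedom fewer, 2 with voom weights, 6 with the identifier prefix as a block, 1 with a striatal marker covariate, and 2 once the trend on length and GC was removed. They became 0 with no sex term, in prefix 14308 or 14309 alone, and with the trend on the principal transcript. For the difference within females or within males, from the interaction fit, they also became 0. Leaving out 1 library gave 1 to 9 OXPHOS genes and 140 to 820 of all genes. The OXPHOS median stayed negative in all 30 settings, at -0.0649 with quantile normalization, -0.271 in prefix 14308, -0.0651 with the striatal covariate, -0.00402 with the trend and -0.0197 with the trend on the principal transcript, and -0.209 to -0.115 with 1 library left out. The count over all genes was 229 without the 2 libraries in doubt, 189 with 1 degree fewer, 742 with voom (683 higher and 59 lower), 200 with no sex term, 300 with the prefix block, 6 and 16 in prefixes 14308 and 14309, 0 in females, 9 in males, 2 with the striatal covariate, 161 with the trend and 247 with the trend on the principal transcript. Median centring split all calls into 233 higher and 243 lower, and quantile normalization into 362 and 102, against 303 and 150. For sex the 1 OXPHOS gene became 0 with quantile normalization, without the 2 libraries in doubt and with 1 degree fewer, and 0 to 2 with 1 library left out. The interaction stayed at 0 in every setting run. The voom setting changed both the weights and the scale of each library. The cause of the changes between settings was not tested.

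WT and Het share the numbers 4 and 7 with different prefixes, so the numbers were not taken as pairing, and same-numbered deviations correlated at 0.131 and -0.0919. With a replicate block and no sex term, 0 OXPHOS genes and 46 of all genes passed, and the OXPHOS median was -0.0401, with 58 of the 98 genes negative and 40 positive. Among the 36 named genes, the difference turned positive under that replicate block for Ndufc1 (0.0725), Uqcrq (0.0974), Atp5g1 (0.0267), Atp5g2 (0.0252), Cox6a1 (0.03), Cox6b1 (0.0178), Cox7a2 (0.0905), Cox7a2l (0.00736) and Ndufa4 (0.0772).

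None of the 4 genes that passed changed direction. Other named genes did, and the unnamed ones are not listed. With the trend taken out, positive values were found for Ndufs5 (0.00713), Uqcrc2 (0.0211), Atp5h (0.0261), Atp5g2 (0.0515), Atp5g3 (0.0124), Cox6a1 (0.0514), Cox6b1 (0.00971), Cox6b2 (0.0197), Cox7a2 (0.048), Cox7a2l (0.0806), Ndufa4 (0.0212) and Ndufa4l2 (0.0123). On the principal transcript they were found for Atp5h (0.00699), Atp5g2 (0.00427), Cox6a1 (0.00272), Cox7a2 (0.0112), Cox7a2l (0.047) and Ndufa4 (0.0166). With quantile normalization they were found for Sdha (0.0708), Uqcrc2 (0.016) and Cox7a2l (0.0214), with voom for Sdha (0.00623), and with the striatal covariate for Uqcrc2 (0.0555), Cox7a1 (0.0325), Cox4i2 (0.042) and Cox7a2l (0.14). In prefix 14308 Cox4i2 was at 0.00611. Ndufaf4 (up to 0.0826 without WT replicate 3) became negative with median centring (-0.000155), without the 2 libraries in doubt (-0.00228), with the prefix block (-0.0283), in prefix 14308 (-0.177), in males (-0.0703), with the trend on the principal transcript (-0.00546), and at -0.0283, -0.00643 and -0.027 without WT replicate 4, WT replicate 11 and Het replicate 7. Cox15 was at -0.105 in prefix 14308 and -0.097 in males, and Cox6a2 at -0.235, -0.0348 and, with the striatal covariate, -0.0556.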
